A study of Mus musculus with 6 samples.

Results

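The adipogenic transcription factors are the DNA-binding proteins that turn a precursor cell into a fat cell and keep it one. The 10 studied were chosen by name, namely Pparg, Ppara, Esrra, Cebpa, Cebpb, Cebpd, Ebf1, Ebf2, Irf4 and Klf15. The rule takes them by symbol and uses no measured value, but the choice was made with earlier results of these data known, so their shares are a description. Each was measured by 1 probe set, so that they made up 10 of the 15384 genes and 10 of the 16769 probe sets that carried a single gene symbol, and all 10 passed the filter on low values. They were measured in the adrenal glands of female C57Bl/6J mice, killed at 21 weeks of age, on 3 Affymetrix arrays of a control group and 3 arrays of a group whose mothers had been given CGP 39551, a blocker of NMDA receptors, which are ion channels opened by glutamate. The treated group is called CGP. The mothers were dosed by mouth with 5 mg per kg of body weight during pregnancy and on to the end of weaning, and the labels describe the other group only as control. The comparison asks whether the developing offspring's exposure to the antagonist left a mark on gene expression in the adult adrenal. RNA of 18 mice was pooled in each group, and it is not stated if 1 pool was run on all 3 arrays or if each array had its own, so the p-values reflect the spread between arrays alone, which may be technical.

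Fat cell differentiation runs as a cascade. C/EBPβ and C/EBPδ come early, they induce PPARγ and C/EBPα, and these maintain each other and switch on the genes of lipid uptake, storage and release. EBF1 and EBF2 act beside them, EBF2 mainly in cells bound for brown fat. IRF4 and KLF15 serve in the mature cell, where they respond to fasting and feeding, and PPARα and ERRα are nuclear receptors that drive fatty acid oxidation and mitochondrial genes in fat, liver and other oxidative tissues. None of these factors is confined to fat, and several have other roles in immune cells, liver or steroid-producing tissue.

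Of the 10 factors, 3 were higher in the CGP group and none was lower (limma, adjusted p under 0.05 over 16034 probe sets). These were Irf4, Pparg and Ebf1. Of all probe sets tested, 3.53% passed the same threshold, 1.94% as higher and 1.59% as lower, and lower calls outnumbered higher ones when any array but control array 1 was left out. The groups did not overlap for 7 factors, of which 6 were higher and 1, Cebpb, was lower, against 26.3% of all probe sets in either direction and 13.7% as higher. An unadjusted p under 0.05 was reached by 7 factors and by 19.3% of all probe sets. The median log2 difference, CGP minus control, was 0.16 over the 10 factors and -0.01 over all probe sets tested, and 7 factors had a difference above 0 against 45.6% of all probe sets. The 3 factors whose groups overlapped were Esrra, Cebpd and Klf15.

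**Figure D1:**
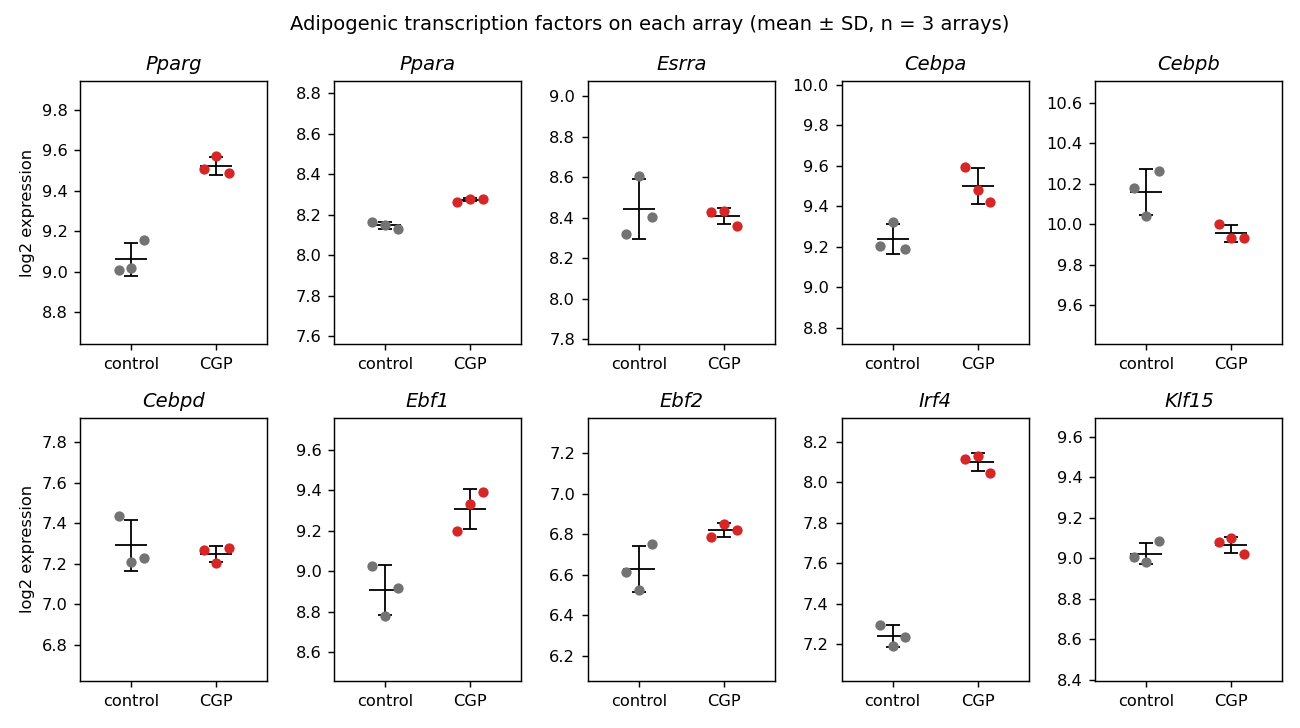
Log2 expression of the 10 factors on each array, with control arrays in grey and CGP arrays in red. Points are single arrays, the black bar is the mean with its SD over 3 arrays, and every panel spans the same height on the log2 axis although its position differs. The CGP arrays lie farthest above the control arrays for Irf4 (8.10 against 7.24), followed by Pparg and Ebf1.

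Marker genes of several cell types are given beside these values to describe the composition of the samples. Adrenal cortex markers were bright, with a summed level on the log2 scale of 16.42 to 16.48 on the control arrays and 16.51 to 16.56 on the CGP arrays, and 1 of 9 was higher (Cyp11b2). Fat and liver markers were also present in both groups. Of 6 adipocyte markers tested, 4 were higher, and their summed level was 14.41 to 14.44 in controls and 14.77 to 14.79 after CGP. Lep, also on that list, was under the filter on low values and not tested. It read 5.06, 5.46 and 5.45 in controls and 5.46, 5.39 and 5.39 after CGP. Of 6 brown adipocyte markers, 5 were higher, with a summed level of 12.42 to 12.50 against 13.28 to 13.30. Dio2 was not called and was low, at 6.29 to 6.41 in controls and 6.54 to 6.84 after CGP. All 11 hepatocyte markers tested were lower, at 14.97 to 14.98 against 14.31 to 14.33. In such bulk samples, fewer cells of a type and less RNA per cell cannot be told apart. The part of the fat and liver markers in the differences described here was not tested.

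The promoters of the 3 factors that passed the threshold are shown first. Of the 10 factors, 8 had at least 1 promoter window in the RefSeq table (GRCm38.p6), which holds 300 bases around each start site. The table gives 1 window for Irf4 (chr13:30748983-30749282), 3 for Pparg (chr6:115360894-115361193, chr6:115362099-115362398 and chr6:115421816-115422115) and 2 for Ebf1, of which the one with a match is shown (chr11:44617850-44618149), all on the plus strand. Capitals mark matches, on either strand, to a motif of one of the factors' own families.
Irf4: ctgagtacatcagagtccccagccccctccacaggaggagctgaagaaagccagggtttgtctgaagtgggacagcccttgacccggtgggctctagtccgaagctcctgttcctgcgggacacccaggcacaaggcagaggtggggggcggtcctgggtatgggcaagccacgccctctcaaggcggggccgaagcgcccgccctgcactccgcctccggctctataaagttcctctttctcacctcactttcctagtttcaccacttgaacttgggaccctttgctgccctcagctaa
Pparg, start 1: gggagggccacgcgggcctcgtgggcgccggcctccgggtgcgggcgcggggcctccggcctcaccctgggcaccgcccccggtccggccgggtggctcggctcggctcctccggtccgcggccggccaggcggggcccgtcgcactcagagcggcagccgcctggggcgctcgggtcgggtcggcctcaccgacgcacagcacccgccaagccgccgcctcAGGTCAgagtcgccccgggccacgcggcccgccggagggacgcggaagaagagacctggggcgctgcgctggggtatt
Pparg, start 2: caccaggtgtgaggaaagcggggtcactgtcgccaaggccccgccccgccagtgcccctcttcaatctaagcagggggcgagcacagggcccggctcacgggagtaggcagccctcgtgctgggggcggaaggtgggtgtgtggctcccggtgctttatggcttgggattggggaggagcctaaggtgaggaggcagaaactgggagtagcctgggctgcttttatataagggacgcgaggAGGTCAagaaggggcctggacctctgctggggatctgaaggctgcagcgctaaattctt
Pparg, start 3: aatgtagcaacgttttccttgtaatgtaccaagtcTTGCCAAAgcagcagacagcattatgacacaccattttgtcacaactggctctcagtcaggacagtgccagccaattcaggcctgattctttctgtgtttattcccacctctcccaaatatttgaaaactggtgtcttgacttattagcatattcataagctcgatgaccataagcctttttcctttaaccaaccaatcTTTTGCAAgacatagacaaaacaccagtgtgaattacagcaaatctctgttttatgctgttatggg
Ebf1, start 1: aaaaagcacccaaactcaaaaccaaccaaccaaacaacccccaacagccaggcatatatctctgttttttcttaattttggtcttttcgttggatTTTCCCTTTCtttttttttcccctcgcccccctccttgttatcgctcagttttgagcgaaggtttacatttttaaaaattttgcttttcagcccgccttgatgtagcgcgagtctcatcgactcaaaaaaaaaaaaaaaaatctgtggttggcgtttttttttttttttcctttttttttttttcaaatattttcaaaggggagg

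The motifs searched were AGGTCA, the core of the sites that nuclear receptors such as the PPARs and ERRs bind, TTGCNNAA for the C/EBP family, CCCNNGGG for the EBF family and, for the IRF family, 2 copies of GAAA spaced by 2 bases. The first and second Pparg windows each held 1 AGGTCA, which 16.3% of all 32851 windows in the table held. The third held 2 matches to TTGCNNAA, found in 10.8% of all windows. The Ebf1 window held 1 match to the spaced GAAA pair (3.44% of all windows), and the other Ebf1 window and that of Irf4 held none of the motifs. Among the other factors, the windows of Ppara and Cebpb each held 1 CCCNNGGG (13.7% of all windows), and those of Cebpa, Esrra and Klf15 held no match. No window held matches to more than 1 motif. Of the windows shown, the GC content ran from 36.7% in the Ebf1 window to 80.3% in the first Pparg window, and 52.7% was the median of all windows. These matches are letters in a window, and binding was not measured.

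Irf4 (interferon regulatory factor 4) had the largest difference of the 10. In fat it is induced by fasting and promotes lipolysis, in brown fat it works with PGC-1α on thermogenic genes, and in B and T cells it is a lineage regulator. Its log2 values were 7.30, 7.19 and 7.23 on control arrays 1 to 3 and 8.12, 8.13 and 8.05 on CGP arrays 1 to 3. The lowest CGP array thus lay well above the highest control array, and all 6 were above the array background of 6.42 to 6.65, set by receptor genes of the nose that adrenals should not express. The log2 difference was 0.86 (SE 0.05, 95% interval 0.74 to 0.97), a 1.81-fold increase (limma, adjusted p = 0.000108). Only 6 of the 16034 probe sets tested rose by more, so that Irf4 ranked 7. The difference was 0.83 to 0.89 when each array was left out in turn, with adjusted p between 0.000232 and 0.00131.

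No other member of the IRF family passed the threshold. Of the 8 IRF genes tested 1 was called, Irf4, and the other 7 differed by -0.08 (Irf1) to 0.15 (Irf7) on the log2 scale. Irf8, which shares roles with IRF4 in immune cells, stood at -0.05 (SE 0.05). Markers of the lymphocytes in which IRF4 also acts were not called higher. None of 4 B cell markers tested was called, their median difference was -0.07 and their summed level was 8.34 to 8.55 in controls and 8.33 to 8.43 after CGP, while Blk, Cd22 and Pax5 were under background on all arrays. None of 4 T cell markers was called, at 8.71 to 8.88 against 8.72 to 8.79, with Cd4 under background on all arrays. Of 3 plasma cell markers, 1 (Sdc1) was lower, a call that held without control array 1 and was lost without any other array, Tnfrsf17 was under background on all arrays, and their summed level was 9.25 to 9.35 in controls and 9.05 to 9.12 after CGP.

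Among the nuclear receptors, Pparg was higher and its relatives were not called. PPARγ is the receptor without which fat cells do not form, and the target of the thiazolidinedione drugs. The Pparg probe set read 9.01, 9.02 and 9.16 on the control arrays and 9.51, 9.57 and 9.49 on the CGP arrays. Its groups were well apart, and the 3 CGP arrays spanned less than the 3 controls. The log2 difference was 0.46 (SE 0.06, 95% interval 0.33 to 0.59), which is 1.37-fold (limma, adjusted p = 0.00396), and it ranked 67 among all increases. It stayed past the threshold whichever array was left out (0.43 to 0.51, adjusted p from 0.00639 to 0.0296).

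Ppara, the receptor through which fasting raises fatty acid oxidation and ketone production, moved in the same direction by less. Its values were 8.16, 8.15 and 8.13 in controls and 8.27, 8.28 and 8.28 after CGP, very close within each group and without overlap between them. The log2 difference of 0.13 (SE 0.04, 95% interval 0.03 to 0.22) had an unadjusted p of 0.0162 in limma and an adjusted p of 0.151. Ppard, the remaining PPAR, differed by 0.08 (SE 0.04, adjusted p = 0.362).

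Esrra encodes ERRα, a partner of PGC-1 coactivators in the control of mitochondrial genes. Its values were 8.32, 8.61 and 8.41 in controls and 8.43, 8.43 and 8.36 after CGP, and the CGP arrays fell inside the range of the controls, which control array 2 widened. The log2 difference was -0.04 (SE 0.07, 95% interval -0.21 to 0.14; limma, adjusted p = 0.823), and it was 0.04 without control array 2. Its relative Esrrg differed by -0.01 (SE 0.06).

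No member of the C/EBP family passed the threshold, and the 3 factors chosen differed in sign. Cebpa, which maintains the mature fat cell together with Pparg and is also abundant in liver, read 9.21, 9.32 and 9.19 in controls and 9.60, 9.48 and 9.42 after CGP. All CGP arrays were above all controls. The log2 difference was 0.26 (SE 0.06, 95% interval 0.11 to 0.40), with an adjusted p of 0.0695 in limma, and it stayed short of the threshold without any single array (adjusted p from 0.0694 to 0.210). It passed under 3 other settings of the test, given with the processing.

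Cebpb, an early factor of the cascade that is also a stress and inflammation responsive gene in many tissues, was the single factor with all CGP arrays below all controls. Its values were 10.178, 10.039 and 10.265 in controls and 10.002, 9.931 and 9.934 after CGP. The gap between the nearest arrays was small, and the log2 difference of -0.21 (SE 0.06, 95% interval -0.35 to -0.06) had an adjusted p of 0.139 in limma. Cebpd, the other early factor, overlapped between groups, at 7.44, 7.21 and 7.23 in controls and 7.27, 7.20 and 7.28 after CGP. Control array 1 was its highest, and the log2 difference of -0.04 (SE 0.07, 95% interval -0.20 to 0.12, adjusted p = 0.773) became 0.03 without that array. Of the wider family, Cebpe and Cebpg differed by -0.02 and 0.04.

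Ebf1 and Ebf2 are the early B cell factors, named for their role in lymphocytes. EBF1 acts in the commitment of both B cells and fat cells, and EBF2 marks brown fat precursors and opens brown fat genes for PPARγ. Ebf1 read 9.02, 8.78 and 8.92 on the control arrays and 9.20, 9.33 and 9.39 on the CGP arrays. The groups did not overlap, although both were wider than those of Irf4 or Pparg. The log2 difference was 0.40 (SE 0.08, 95% interval 0.22 to 0.58), which is 1.32-fold, and it ranked 106 among all increases (limma, adjusted p = 0.0330).

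The call for Ebf1 was the least firm of the 3. It was lost without control array 2 (adjusted p = 0.0704), control array 3 (0.111), CGP array 2 (0.137) or CGP array 3 (0.145), and held without control array 1 (0.0172) or CGP array 1 (0.0455). The log2 difference itself remained between 0.34 and 0.46. It was also lost with every probe set of the table in the test, named or not (0.0892). Few markers of the stromal cells in which Ebf1 is also expressed were called. The summed levels of the pericyte and of the fibroblast and preadipocyte markers were nevertheless higher on all CGP arrays than on all controls. None of 6 pericyte markers was called (median log2 difference 0.08, summed level 11.22 to 11.29 against 11.30 to 11.35), and of 8 fibroblast and preadipocyte markers 1, Pi16, was higher (median 0.09, summed level 12.28 to 12.33 against 12.41 to 12.46, with Dpp4 under background on all arrays). Pi16 was not called when any array was left out. The part of these cells in the Ebf1 difference was not tested.

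Ebf2 lay close to background. Its values were 6.61, 6.53 and 6.75 in controls and 6.79, 6.85 and 6.82 after CGP, and control array 2 was under its array's background of 6.65. The CGP arrays were all higher, by a narrow margin over control array 3, and the log2 difference of 0.19 (SE 0.06, 95% interval 0.04 to 0.34) had an adjusted p of 0.160 in limma. The other family members, Ebf3 and Ebf4, differed by 0.06 and 0.03.

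Klf15, a glucocorticoid-inducible factor that raises Slc2a4 and amino acid breakdown genes, stood at nearly the same level in both groups. It read 9.01, 8.98 and 9.08 in controls and 9.08, 9.10 and 9.02 after CGP. The groups overlapped, and the log2 difference of 0.04 (SE 0.05, adjusted p = 0.678) had a 95% interval from -0.07 to 0.16. Of the 14 KLF genes tested none was called, and their differences ran from -0.14 (Klf2) to 0.23 (Klf12).

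**Figure D2:**
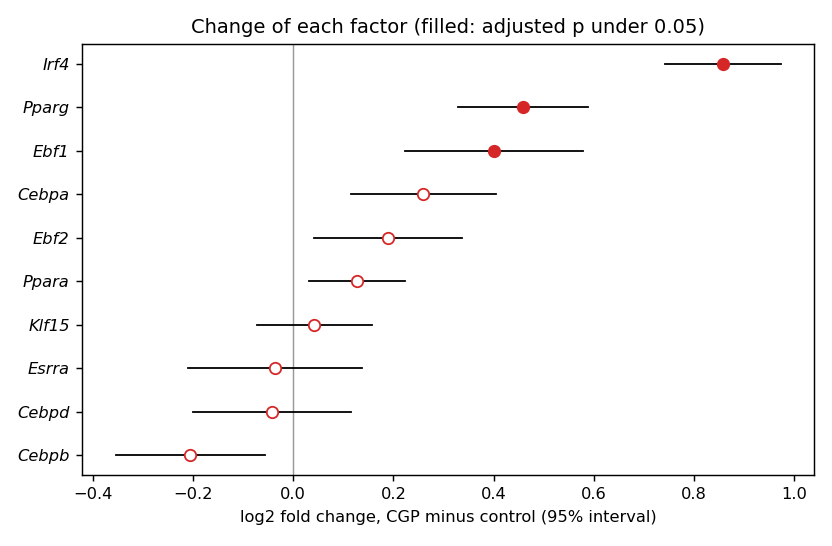
Log2 difference, CGP minus control, of each factor with its 95% interval (lines) over 3 arrays a group, sorted by size. Filled points had an adjusted p under 0.05 in limma. The intervals of Irf4, Pparg, Ebf1, Cebpa, Ebf2 and Ppara lie above 0, that of Cebpb below 0, and those of Esrra, Cebpd and Klf15 cross it.

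Whether relatives moved apart was examined for 7 pairs, drawn from the nuclear receptors, the C/EBP family and the EBF family. Each pair had an exact two-sided permutation test on the per-array difference of its 2 factors. With 3 arrays against 3 this test cannot give a p below 0.1. The difference for Pparg exceeded that for Ppara by 0.33 on the log2 scale (SE 0.06), and that for Esrra by 0.50 (SE 0.11). Cebpa exceeded Cebpb by 0.46 (SE 0.11) and Cebpd by 0.30 (SE 0.11), Cebpb lay below Cebpd by a difference of -0.16 (SE 0.09), and Ebf1 exceeded Ebf2 by 0.21 (SE 0.08). In these 6 pairs the per-array differences did not overlap between groups, which gives the exact p of 0.1 (0.117 after Benjamini-Hochberg adjustment over the 7 pairs). Of single probe sets, 26.3% did not overlap, and the share among all pairs of genes was not computed. The pairs were also chosen after their values were seen, so this count is no result about relatives. For Ppara and Esrra they overlapped (0.16, SE 0.09, exact p = 0.2). No pair could therefore be called different by this test.

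The genes most like Pparg and Irf4 across the 6 arrays came from the whole set of probe sets tested. Pearson's r is given as a description, since the 6 arrays share the difference between groups. Lgals12, a galectin of lipid droplets, followed Pparg most closely (r = 0.998), then Slc27a1, a fatty acid transporter (0.997), Atp10a (0.997), Cyp11b2, the aldosterone synthase (0.996), and Tgif1 (0.996). For Irf4 they were Adipoq, which encodes adiponectin (0.999), Mc5r, a melanocortin receptor (0.999), Pnpla2, the adipose triglyceride lipase (0.999), Adipor2, an adiponectin receptor (0.997), and Elovl3, a fatty acid elongase of brown fat (0.997). Pparg and Irf4 had an r of 0.97 with each other.

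Of 49 other regulators of fat cell differentiation tested, 1 was higher and none lower, a share (2.04%) near the 3.53% of all probe sets that is no result about these genes, and the median log2 difference was 0.03. The 30 partners and promoting factors had a median of 0.06, and the 19 restraining factors tested had a median of -0.01 with none called. The gene called was Ppargc1a, which encodes PGC-1α, the cold-inducible coactivator of PPARγ, PPARα, ERRα and IRF4. It read 7.23, 7.10 and 7.14 in controls and 7.52, 7.65 and 7.47 after CGP, without overlap, and the log2 difference was 0.39 (SE 0.06, adjusted p = 0.0156 in limma). That call was lost without control array 3 (adjusted p = 0.0734), CGP array 1 (0.0507) or CGP array 2 (0.0628), which left no regulator called. Rxra, the partner with which PPARs bind DNA, was level between groups (log2 difference -0.005, adjusted p = 0.968), Rxrg differed by 0.18 (0.124) and Prdm16, a brown fat determinant, by 0.01 (0.928).

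Genes known to lie under PPARγ and C/EBPα in fat cells were mostly higher. Of 25 tested, 17 were higher and none lower, with a median log2 difference of 0.38, while over all 14727 genes 285 were higher, 250 were lower and the median was -0.01. The 4 with the smallest adjusted p were Aqp7, the glycerol channel of fat cells, Slc2a4, the insulin-responsive glucose transporter, Trarg1, which helps that transporter reach the membrane, and Lpl, the lipase that frees fatty acids from plasma lipoproteins. Aqp7 rose from 8.94, 8.94 and 8.92 to 10.03, 9.96 and 9.87, a log2 difference of 1.02 (SE 0.05). Slc2a4 rose by 0.65 (SE 0.04), Trarg1 by 0.71 (SE 0.05) and Lpl by 0.67 (SE 0.05). The log2 difference of Pparg (0.46) was above the median of the list. It was below that of each of these 4, which were picked by their adjusted p. That of Irf4 (0.86) was above 3 of the 4. Of this list, 6 genes are also adipocyte markers and Cidea is a brown adipocyte marker, so it is not separate from the marker counts above.

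Genes under PPARα did not share a direction. Of 20 tested, 4 were higher and 4 lower, and the median log2 difference was 0.02. The share called was 40%, against 3.53% of all probe sets. Cyp4a14 and Cyp4a10, microsomal fatty acid hydroxylases most abundant in liver and kidney, fell by 0.89 each (SE 0.05 and 0.08). Pdk4, which spares glucose by braking pyruvate dehydrogenase, rose by 0.47 (SE 0.04), and Ucp3, an uncoupling protein relative found in muscle and brown fat, rose by 0.50 (SE 0.06). The other 4 called, named after their values were seen, were Fabp1 and Ehhadh, which were lower, and Acadl and Hadhb, which were higher. The count of 8 fell to 4 without control array 3, CGP array 1, CGP array 2 or CGP array 3. Cyp4a14, Cyp4a10, Pdk4 and Ucp3 were past the threshold in each of these fits.

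Of all probe sets, 1.94% were called higher and 1.59% lower. Of 15 genes under ERRα, 3 (20%) were higher and none lower, with a median of 0.08. They were Pdk4, also a PPARα target, Idh3a, a subunit of a Krebs cycle enzyme, which rose by 0.31 (SE 0.05), and Etfdh, which passes electrons from fatty acid oxidation to the respiratory chain and rose by 0.29 (SE 0.05). Without control array 3 or any one of the CGP arrays the count was 1, Pdk4. Acute phase genes that C/EBPβ and C/EBPδ drive in liver were lower. Of 12 tested, 7 (58.3%) were lower and none higher, with a median of -0.46. Crp, the C-reactive protein, fell by 1.12 (SE 0.07), and Hpx, the haem carrier hemopexin, by 1.01 (SE 0.05). Itih3 and Itih4, which encode heavy chains of the inter-alpha-trypsin inhibitor family secreted by liver, fell by 0.63 and 0.53. These are liver products, and Fgb is both on this list and a hepatocyte marker. The hepatocyte markers were lower by a median of -0.68, and their part in the acute phase values was not tested.

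**Figure D3:**
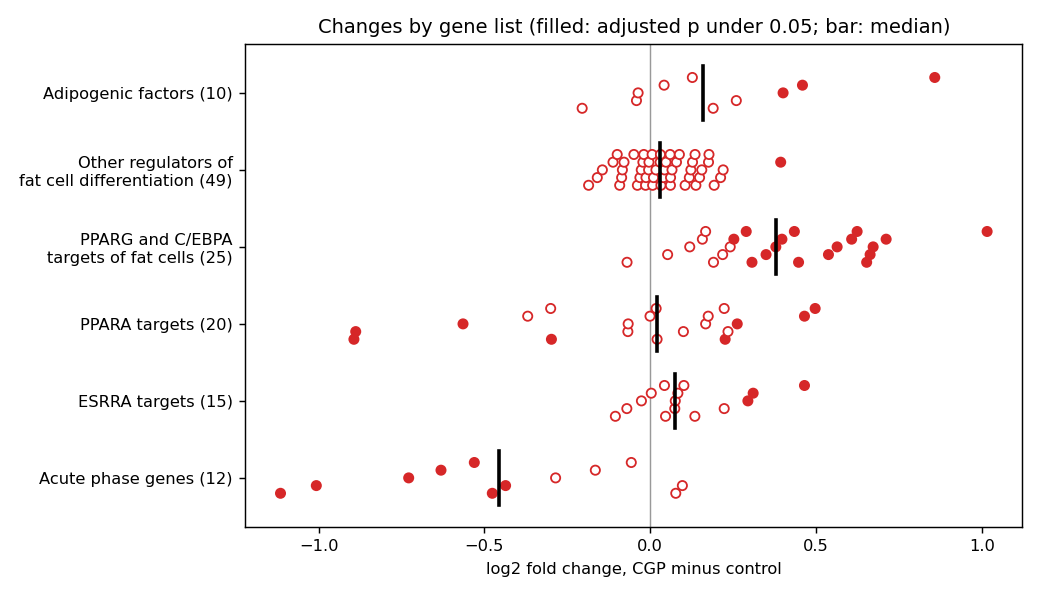
Log2 difference, CGP minus control, of every tested gene of the 10 factors and of the 5 further lists, with the number of genes tested in parentheses. Filled points had an adjusted p under 0.05 in limma, and the black bar is the median of the list. The PPARG and C/EBPA targets lie mostly above 0 (median 0.38), the acute phase genes mostly below it (median -0.46), and the other regulators close to it (median 0.03).

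The 3 calls differed in how far they depended on the way the data were tested. Irf4 passed in all 15 alternatives, Pparg in 14, and Ebf1 in 8. The exception for Pparg was a test against a minimum change of 1.2-fold, under which Irf4 was the sole factor called.

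**Figure D4:**
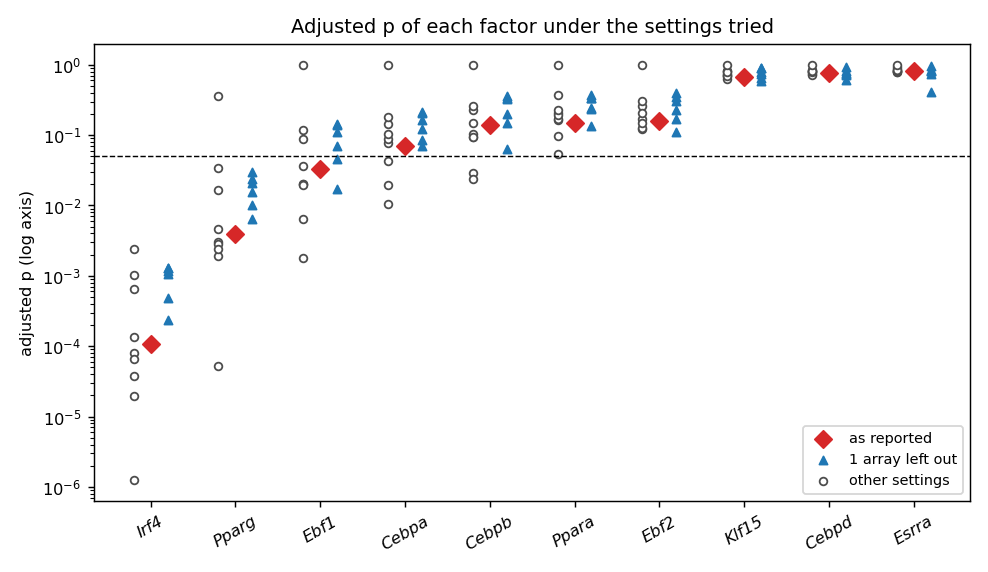
Adjusted p of each factor (log axis) as reported (red diamonds), with 1 array left out (blue triangles) and under the other settings (open circles), against the threshold of 0.05 (dashed line). All points of Irf4 lie below the line, Pparg has 1 above it, and Ebf1 has points on both sides.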

How the data were processed

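The authors deposited log2 expression values of 25150 probe sets for each of the 6 arrays. The submitters' processing notes name RMA, which corrects background, quantile normalises and summarises probes, and Partek. The sources used here name no version, annotation or genome build. Array medians lay between 7.91 and 7.96, and no value was normalised again. Arrays have no read depth, so precision is limited by the number of arrays and by the number of separate pools, which is not stated.

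Groups came from the sample titles. The platform annotation gave 1 symbol to 16769 probe sets, several to 1031 and none to 7350, and Entrez numbers matched 16723 of those with 1 symbol to RefSeq (GRCm38.p6) without changing any. The test took probe sets with 1 symbol whose log2 value reached 6 on at least 3 arrays, whatever their group (16034, of 14727 genes, with 735 left out). The CGP arrays were set against the controls in limma 3.58.1 (R 4.3.3), by a two-sided moderated test from lmFit and eBayes without covariates, and Benjamini-Hochberg adjustment ran over all those probe sets. A gene was called at an adjusted p under 0.05. The fit was tested on simulated data. SE is the moderated standard error, SD is over 3 arrays, and intervals are for single genes and not adjusted. Background was the 75th percentile of 127 olfactory, vomeronasal and trace amine receptor probe sets on each array. Gene lists used the brightest probe set of a gene, and the summed level of a list is the log2 of the sum of its linear values.

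Named were all 10 factors, up to 4 genes of each further list with the smallest adjusted p, Rxra, Rxrg, Ppargc1a and Prdm16 whatever their values, and the 5 genes most like Pparg and the 5 most like Irf4. Relatives of the factors, the marker genes and others named beyond this, and the test of pairs, were chosen after their values were seen. The factors and all lists were chosen with earlier results of these data known. Listed genes without a probe set of 1 symbol were not analysed here. Alternatives changed the filter, the probe sets tested, the normalisation, the variance model, the array weights and the minimum change, used the array number as a block, or left out each array. Figures were drawn with matplotlib 3.10.9.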

Additional observations from a re-analysis of the deposited data

How the results depend on the processing

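With 3 arrays a group, counts moved with each setting, and the cause was not tested. Irf4 kept its direction and call in all 15 alternatives (log2 difference 0.83 to 0.89, adjusted p at most 0.00242). The 566 probe sets called became 1261 with a variance trend and robust prior, 1665 with array weights and 126 against a minimum change of 1.2-fold. In the same order the factors called went from 3 to 5, 5 and 1, and the other regulators from 1 to 3, 7 and 0. A log2 filter of 7 gave 3 regulators and left Ebf2 untested. Cebpa was called with that filter (0.26, adjusted p = 0.0434), with the trend (0.26, 0.0107) and with array weights (0.28, 0.0194), and Cebpb with the trend (-0.21, 0.0286) and array weights (-0.27, 0.0236). Over all its alternatives the adjusted p ran from 0.0107 to 1 for Cebpa and from 0.0236 to 1 for Cebpb. Against 1.2-fold, Pparg (0.46, adjusted p = 0.357) and Ebf1 (0.40, adjusted p = 1) were not called, and the called targets were 9 of PPARγ and C/EBPα, 2 of PPARα and 0 of ERRα. With all probe sets tested, Ebf1 was not called (0.40, 0.0892) and 4 PPARα targets were. The trend gave 5 ERRα targets. Acute phase genes stayed between 5 and 8.

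The labels do not say whether the array numbers pair arrays of the 2 groups, and the main test took them as unpaired. Deviations from the group means correlated at -0.36, -0.17 and -0.12 between arrays of the same number. Between arrays of different numbers they correlated at -0.16 to 0.28. With so few arrays these values cannot settle whether a number stands for shared handling. With the replicate block, 224 probe sets were called, with Pparg and Irf4 among them, 0 other regulators, 4 PPARα targets and 1 ERRα target. Ebf1 then had 0.40 with an adjusted p of 0.117.

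Of the probe sets called, 311 were higher and 255 lower, a split that turned with the block (68 and 156), against 1.2-fold (25 and 101) and with all probe sets (164 and 218). It also turned when any array but control array 1 was left out. Over all 6 of these fits, 79 to 612 were higher and 149 to 487 lower.

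Leaving out each array in turn gave 236 (without CGP array 2) to 1099 (without control array 1) probe sets called, 2 to 3 factors, 0 to 1 other regulators, 13 to 17 PPARγ and C/EBPα targets, 4 to 9 PPARα targets, 1 to 3 ERRα targets and 6 to 7 acute phase genes. The log2 difference of Ebf1 was 0.34 to 0.46. Signs turned for uncalled genes near 0. Cebpd ran from -0.083 to 0.031 (above 0 without control array 1), Esrra from -0.098 to 0.045 (above 0 without control array 2), Prdm16 from -0.0081 to 0.032 (below 0 without control array 2, or without CGP array 2, at -0.0028) and Rxra from -0.035 to 0.027 (above 0 without CGP array 3, or without control array 3, at 0.0035).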
